A study of Homo sapiens with 8 samples.

Results

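U373 cells, an established human astrocytoma line, were given progesterone on top of its antagonist RU-486, and the transcripts that differed from cells given RU-486 alone are described here for every gene on the array that could be named. The 2 combination arrays carried RNA from cells treated for 12 h with 10 nM progesterone and 1 µM RU-486. The 2 RU-486 arrays carried RNA from cells treated for 12 h with 1 µM RU-486. These 4 arrays are part of 8, the other 4 being 2 arrays of 10 nM progesterone alone and 2 of vehicle, which serve here to estimate the spread and to show what progesterone did without the antagonist. All cells had first spent 24 h in medium with 5% serum freed of hormones. A gene was included where a probe set carried 1 gene symbol, and the probe set with the highest mean was kept, which gave 18417 genes from 33297 probe sets. Replicates are titled biological, and nothing states whether separate cultures were used, so p-values below measure only the spread between these arrays, which may be technical. The sample descriptions give RU-486 a different compound number from the titles, and it is taken here as the same drug. Cell stocks named U373 are known to have been mixed up with another glioma line, which the arrays were not used to check.

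Progesterone acts mainly through PGR, a nuclear receptor that binds DNA at palindromic response elements shared with the glucocorticoid receptor NR3C1, and it can also act at membrane receptors of the PAQR family. RU-486, or mifepristone, binds PGR and NR3C1 tightly and blocks the response of both to their hormones. At the doses used here the antagonist was present in molar excess, and the comparison asks which transcripts differ when progesterone is added in its presence. How far either receptor was occupied was not measured.

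The whole-transcript array reads total RNA, including small noncoding RNA genes, as log2 intensities. Of the 18417 genes, 13220 were bright, meaning a mean over the 8 arrays above 6.27 log2 units, the 95th percentile of 361 olfactory receptor genes, whose transcription is largely restricted to the nose. The other 5197 are called dim and lie within the range of that background. Replicate differences had an SD over all genes of 0.17 log2 units in the combination pair and 0.16 in the RU-486 pair, and 0.35 in the progesterone pair. The summed linear signal of 18 astrocyte and glioma stem markers was 34891 and 35789 in the combination arrays, against 36430 and 36146 in the RU-486 arrays. VIM, the vimentin filament gene of astrocytes, had log2 levels of 13.38 and 13.35 in the combination arrays, against 13.37 and 13.34 in the RU-486 arrays. GFAP, the astrocyte filament gene, stood at 7.39 and 7.61, against 7.54 and 7.20. Of the marker genes of other cell types, 7 of 15 for neurons, 7 of 10 for oligodendrocytes, 10 of 14 for microglia and leukocytes, 8 of 11 for endothelium and 3 of 9 for epithelium were dim.

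With progesterone added to RU-486, no gene could be told apart from RU-486 alone after adjustment, and most differences were small. limma called 0 of 18417 genes (0%), and the smallest adjusted p was 0.769. At an unadjusted p under 0.05 there were 874 genes (4.75%), against 921 expected if nothing differed, of which 586 (3.18%) were higher and 288 (1.56%) lower in the combination. The median SE of a difference was 0.11 log2 units and the median half-width of its 95% interval 0.26, so differences much below that size were not detectable gene by gene with these arrays. Exact permutation of 2 arrays against 2 could not give a p below 0.333 for any single gene. The plot of difference against level shows this narrow cloud with a tail of lower genes.

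**Figure D1:**
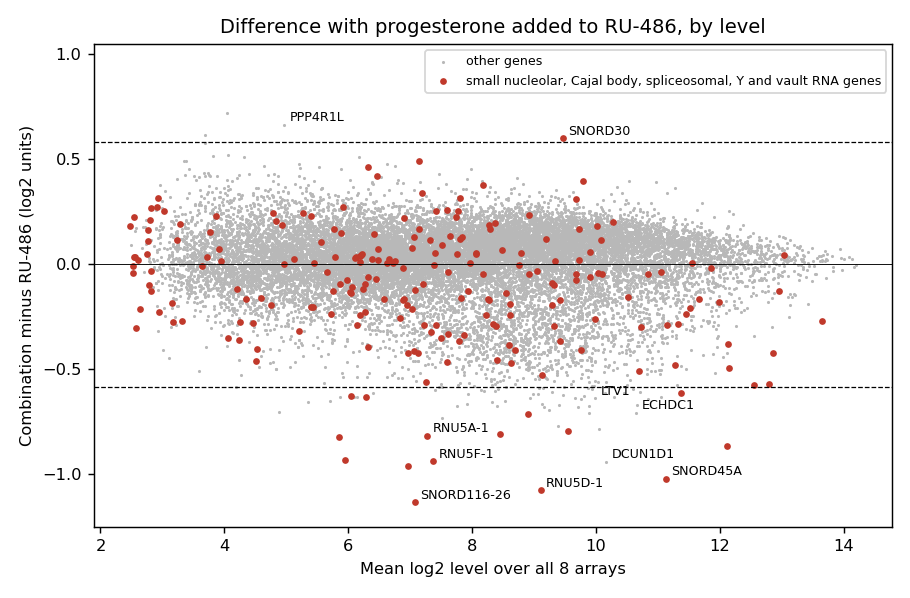
Difference between the combination and RU-486 (vertical axis, log2 units) against the mean level over the 8 arrays (horizontal axis, log2) for 18417 genes, with small RNA genes in a separate colour. Of the 71 genes beyond 1.5-fold, 67 lie below the lower dashed line and 4 above the upper one, and SNORD116-26 is the lowest point at -1.13.

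The direction of the small differences was uneven. Over all genes 61.1% had a mean difference above 0, with a median of 0.04 log2 units in bright genes and 0.03 in dim ones. Both combination arrays lay above both RU-486 arrays in 6138 genes (33.3%) and below both in 3158 (17.1%), and in 9121 genes the groups overlapped. The larger differences went the other way. Beyond 1.5-fold there were 4 higher genes (0.0217%) and 67 lower ones (0.364%), and the 3 genes beyond 2-fold were all lower. The SD of the difference across genes was 0.16 log2 units, against 0.12 from the spread between the combination and RU-486 replicates alone. The p-values also take in the progesterone and vehicle pairs, whose replicate differences had an SD of 0.35 and 0.18. By those p-values 874 genes were under 0.05, against 921 expected if nothing differed, so the larger SD shows no excess over that wider spread. After a further quantile normalization of the deposited values the genes at an unadjusted p under 0.05 split into 475 higher and 416 lower, while centring the arrays on their medians left 546 higher and 304 lower, so the size of the excess moved with the scaling. The lower genes depended on single arrays. Beyond 1.5-fold there were 23 lower genes without combination replicate 1, 290 without combination replicate 2, 265 without RU-486 replicate 1 and 30 without RU-486 replicate 2.

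The receptors through which the 2 steroids act differed little between the groups. PGR, the nuclear progesterone receptor, had log2 levels of 4.57 and 4.49 in the combination arrays, against 4.49 and 4.75 in the RU-486 arrays. The groups overlapped, the difference was -0.09 ± 0.14 log2 units (SE), and the signal was dim, close to the olfactory receptor median of 4.66. NR3C1, the glucocorticoid receptor, was at 9.61 and 9.76 in the combination arrays, against 9.92 and 10.07 in the RU-486 arrays. Both combination arrays lay below both RU-486 arrays, by 0.31 ± 0.12 log2 units (95% interval -0.60 to -0.02, limma unadjusted p = 0.041, adjusted p = 0.769). NR3C2, the mineralocorticoid receptor, was dim at 5.75 and 5.75, against 5.64 and 5.54, a difference of 0.16 ± 0.08. The estrogen receptor genes ESR1 and ESR2 differed by 0.02 ± 0.10 and -0.02 ± 0.12, both dim.

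Membrane progestin receptors gave the same picture. PAQR8, the membrane receptor beta, had 9.14 and 9.32 log2 units in the combination arrays and 9.26 and 9.23 in the RU-486 arrays. PGRMC2, a membrane-associated heme-binding protein linked to progesterone signalling, had 9.68 and 9.69, against 9.67 and 9.74. Their differences of -0.02 ± 0.10 each had 95% intervals of -0.25 to 0.22 and of -0.26 to 0.21. PAQR6 was at 7.90 and 7.80 in the combination arrays, against 7.80 and 7.80 in the RU-486 arrays. The other members were close to background, and the largest difference was that of PAQR7, the membrane receptor alpha, at 0.22 ± 0.19 with overlapping groups. In all, 0 of 6 measured members passed an unadjusted p of 0.05.

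Proteins that hold steroid receptors ready for hormone or carry their signal to the polymerase were measured in 15 genes. PTGES3, the p23 cochaperone that completes the HSP90 complex of steroid receptors, was the only member with an unadjusted p under 0.05. It had 11.93 and 11.75 log2 units in the combination arrays, against 11.55 and 11.61 in the RU-486 arrays, a difference of 0.26 ± 0.11 (limma unadjusted p = 0.048). The coactivators pointed the other way without passing. NCOA2 differed by -0.37 ± 0.18, NCOA1 by -0.22 ± 0.11 and MED1, a Mediator subunit bound by nuclear receptors, by -0.19 ± 0.08. Of the 15 genes 10 had a difference above 0, and the median was 0.06 log2 units, beside 0.04 over all genes.

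Known targets of the 2 receptors showed no member with an unadjusted p under 0.05. Of 29 measured progesterone receptor targets 21 (72.4%) had a difference above 0, with a median of 0.03 log2 units, beside 61.1% and 0.04 over all genes. LIF, a cytokine of the interleukin 6 family, had the smallest p, at 6.35 and 6.02 in the combination arrays, against 5.80 and 5.91 in the RU-486 arrays, and differed by 0.33 ± 0.16 (limma unadjusted p = 0.070). STAT5A, a transcription factor downstream of prolactin, differed by 0.23 ± 0.12, and WNT4, which progesterone induces in the breast and uterus, by -0.12 ± 0.10. Of 33 glucocorticoid receptor targets 20 (60.6%) had a difference above 0, with a median of 0.01. PER1, a clock gene that glucocorticoids induce, had 7.51 and 7.47 in the combination arrays, against 7.33 and 7.27 in the RU-486 arrays, a difference of 0.19 ± 0.09 (limma unadjusted p = 0.068). The transcription factor CEBPB and the cell cycle inhibitor CDKN1A differed by 0.14 ± 0.09 and 0.11 ± 0.08.

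Enzymes that make or clear progesterone, and the GABA-A receptors on which its metabolite allopregnanolone acts, were mostly dim and differed little. Among 23 metabolism genes 0 had an unadjusted p under 0.05. SRD5A1, the 5-alpha-reductase that begins the conversion to allopregnanolone, was bright and differed by 0.12 ± 0.08, and STARD3, a cholesterol transporter of endosomes, by 0.17 ± 0.08. HSD11B1, which regenerates active glucocorticoid, was dim and differed by -0.23 ± 0.16. Of 12 GABA-A subunit genes 1 had an unadjusted p under 0.05, GABRG1, a dim gene with 3.96 and 4.05 log2 units in the combination arrays, against 3.67 and 3.50 in the RU-486 arrays. Its difference was 0.42 ± 0.09 (limma unadjusted p = 0.003). Targets of the xenobiotic receptors PXR and AhR, which bind many steroids and drugs, had 0 of 13 members with an unadjusted p under 0.05, and the drug efflux pump ABCB1 differed by -0.18 ± 0.11.

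The order of genes by p was unstable. Of the 50 genes with the smallest p, 12 to 16 remained among the 50 when 1 combination or RU-486 array was left out, 9 with the replicate number as a block and 16 with the 4 arrays alone. In the reported fit the bright protein-coding genes with the smallest p on the higher side were led by PLEKHO1, which encodes a membrane adaptor that binds casein kinase 2. It had 9.08 and 8.98 log2 units in the combination arrays, against 8.63 and 8.67 in the RU-486 arrays. The groups lay apart by more than either replicate gap, with a difference of 0.38 ± 0.08 (limma unadjusted p = 0.002, adjusted p = 0.769). CASZ1, a zinc finger transcription factor of heart and vessel development, had 7.82 and 7.70, against 7.28 and 7.37, a difference of 0.43 ± 0.10. PPCS, an enzyme of coenzyme A synthesis, had 8.29 and 8.19, against 7.81 and 7.96, a difference of 0.36 ± 0.09. NUP37, a subunit of the nuclear pore, had 10.70 and 10.59, against 10.28 and 10.27, a difference of 0.37 ± 0.09. B4GALT1, which adds galactose to glycoproteins, had 11.45 and 11.28, against 11.02 and 11.02, a difference of 0.34 ± 0.09.

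The other 7 genes of this group differed by 0.29 to 0.41 log2 units, that is by less than 1.5-fold. They were the chromatin scaffold gene BRPF3, the glutathione transferase GSTM2, the kinase MAST3, the keratan sulfotransferase CHST1, the zinc finger genes ZNF777 and ZSWIM3, and EOLA2. The replicates of ZSWIM3 lay close together in both groups, and its difference was 0.34 ± 0.08. Progesterone without RU-486 gave these 12 genes differences of -0.17 to 0.14 from vehicle. Among dim genes, DQX1 at 6.42 and 6.40, against 5.91 and 5.89, and OR10D3 at 4.58 and 4.63, against 4.04 and 4.15, each differed by 0.51 log2 units, and the pseudogene PPP4R1L by 0.67 ± 0.13. Those are differences of probe sets within the background range.

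On the lower side the bright protein-coding gene with the smallest p was ZNF487, a zinc finger gene. It had 6.09 and 6.16 log2 units in the combination arrays, against 6.70 and 6.77 in the RU-486 arrays, and the difference of -0.61 ± 0.12 (limma unadjusted p = 0.002, adjusted p = 0.769) was -0.65 to -0.57 whichever array was left out. Both combination arrays lay below the background level of 6.27, as did the vehicle mean of 6.13, so the gene counts as bright through the RU-486 and progesterone arrays. LTV1, which assembles the small ribosomal subunit, had 9.34 and 9.75, against 10.06 and 10.30, a difference of -0.64 ± 0.15. ECHDC1, an enzyme that clears a by-product of fatty acid synthesis, had 9.94 and 10.22, against 10.71 and 10.86, a difference of -0.71 ± 0.18. In each of these the 2 groups did not overlap.

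Cell surface receptors were among the others. ROR1, a Wnt5a receptor, had 7.59 and 7.82 log2 units in the combination arrays, against 8.05 and 8.19 in the RU-486 arrays, a difference of -0.42 ± 0.11. EPHA3, an ephrin receptor known from glioma, had 9.41 and 9.53, against 9.83 and 9.94, a difference of -0.42 ± 0.12. CDC6, which licenses origins of replication, had 11.68 and 11.65, against 11.95 and 11.94, a difference of -0.28 ± 0.08. The remaining genes, DCPH1, the methyl-lysine reader gene L3MBTL3, the Golgi GTPase gene RAB33B, the connexin gene GJB5, the thiopurine methyltransferase gene TPMT and HSP90AA2P, differed by -0.45 to -0.31. GJB5 had a combination mean of 6.21, within background. HSP90AA2P is a near copy of an HSP90 gene, so its signal cannot be assigned to it alone. Of the dim genes, SYT14P1 differed by -0.46, ADCY10P1 by -0.63 and the macrophage gene MPEG1 by -0.37. The plot of the leading genes shows all 4 arrays for each.

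**Figure D2:**
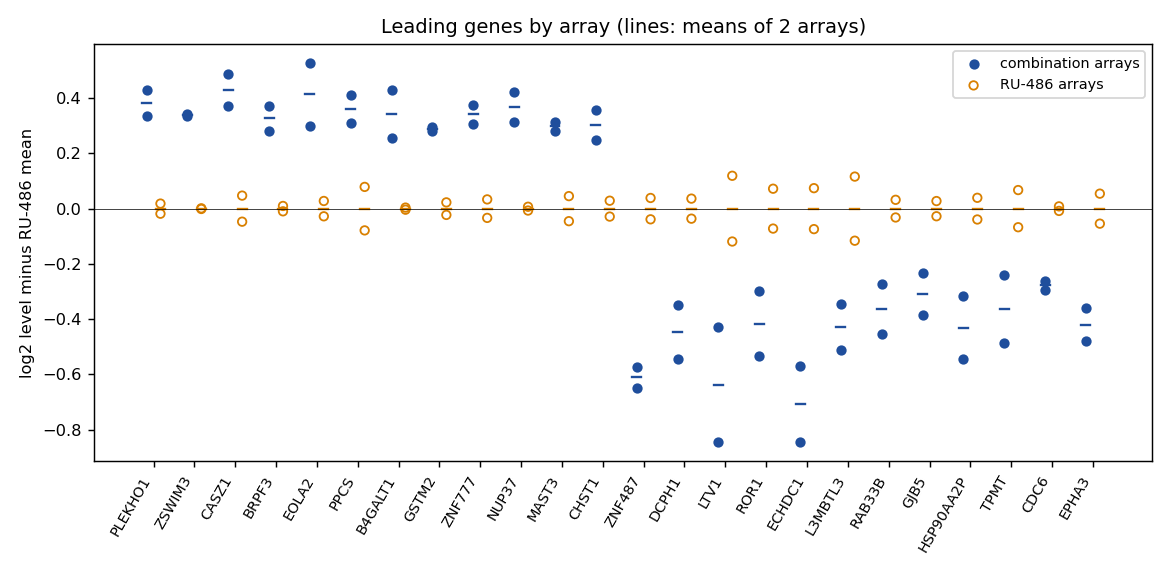
Log2 level of the 24 leading bright genes in each array, drawn relative to the mean of the 2 RU-486 arrays (vertical axis, log2 units), with combination arrays as filled symbols and RU-486 arrays as open ones to their right. The 2 groups do not overlap in any of these genes, which were chosen for that and for the smallest unadjusted p, and the differences run from -0.71 for ECHDC1 to 0.43 for CASZ1.

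The 67 genes lower by more than 1.5-fold held a protein-coding and a noncoding set. In the combination, 50 protein-coding genes had a median difference of -0.64 log2 units, and 17 other genes one of -0.82. Only 20 of the 50 had an unadjusted p under 0.05, against all of the 17. Both sets were chosen by the size of this same difference. A share above the 1.56% of all genes lower at that threshold therefore follows from the choice. Of the 46 measured G2/M genes 4 (8.70%) were among the 50, beside 0.364% of all genes. NUF2, a kinetochore subunit, had 8.39 and 8.78 log2 units in the combination arrays, against 9.09 and 9.46 in the RU-486 arrays, a difference of -0.69 ± 0.25 (limma unadjusted p = 0.029). DLGAP5, a spindle protein, had 8.55 and 8.77, against 9.23 and 9.42, a difference of -0.67 ± 0.26. ECT2, which drives cytokinesis, had 10.30 and 10.53, against 10.84 and 11.25, a difference of -0.63 ± 0.33 (limma unadjusted p = 0.096). DCUN1D1, a neddylation factor of cullins, had the largest difference of the 50, with 8.89 and 9.71, against 10.14 and 10.34, a difference of -0.94 ± 0.35. Without combination replicate 1 it was -0.53, and with the axis score described below as a covariate -0.67. NAA15, of the N-terminal acetyltransferase complex, differed by -0.79 ± 0.31, ADAM10, a membrane sheddase, by -0.64 ± 0.22, and NOP58, a core protein of box C/D small nucleolar particles, by -0.59 ± 0.22. These genes other than NUF2 and DLGAP5 were chosen after their values were seen.

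Among the arrays the 50 protein-coding genes varied together within groups as well as between them. Combination replicate 1 was below combination replicate 2 in 47 of the 50, and RU-486 replicate 1 was below RU-486 replicate 2 in 49. Combination replicate 1 was also the lower one in 16 of the 17 other genes, so that order was not particular to the protein-coding set. The shares over all genes were not counted. Principal component analysis of the differences between replicates gave an axis that held 66.4% of the variance within the 4 groups. The 2 combination arrays scored 16.7 and 8.11 on it, against 4.23 and -3.84 for the 2 RU-486 arrays. The progesterone arrays scored 21.8 and -24.7, and the vehicle arrays -3.71 and -18.7. Across genes the difference between the combination and RU-486 correlated with the loading on this axis at r = 0.55, a description across genes that share the same arrays. With the axis score as a covariate, 5 of the 50 protein-coding genes stayed beyond 1.5-fold, with a median difference of -0.39, and 14 of the 17 others stayed, with a median of -0.87. The score of an array holds differences between groups as well as within them. A smaller difference for genes that load on the axis is therefore built in. The progesterone arrays, which lie farthest apart on the axis, are outside this comparison. What the axis stands for was not tested. The plot of axis scores shows how the arrays lie along it.

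**Figure D3:**
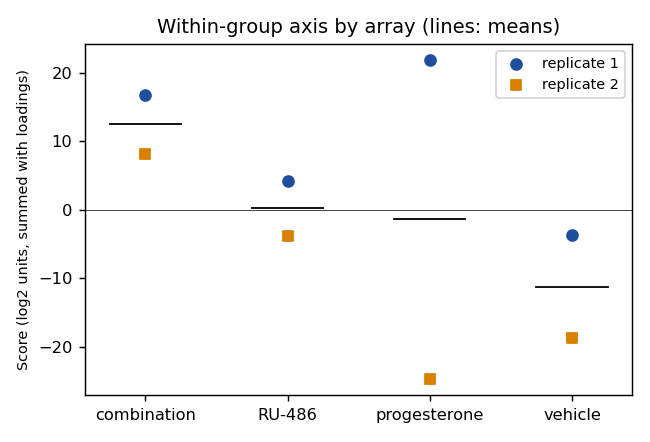
Score of each array on the within-group axis (vertical axis, log2 differences summed with the axis loadings), by group (horizontal axis), with replicate numbers as separate symbols and group means as lines. The 2 combination arrays, at 16.7 and 8.11, lie above the 2 RU-486 arrays, at 4.23 and -3.84, and the progesterone arrays lie farthest apart.

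Genes of the G2 and M phases showed the same pattern. Of 46 measured members, 18 had a difference above 0 and 28 below, with a median of -0.09 log2 units. In 25 of them both combination arrays lay below both RU-486 arrays, which is 54.3% beside 17.1% over all genes, and at an unadjusted p under 0.05 there were 4 lower and 2 higher, 13.0% beside 4.75%. The mean log2 level of the list was 9.95 and 9.98 in the combination arrays, against 10.10 and 10.19 in the RU-486 arrays. Members differed among themselves. CCNB1, the mitotic cyclin, differed by -0.002 ± 0.09 and the mitotic kinase genes AURKA and PLK1 by 0.03 ± 0.08 and 0.08 ± 0.08. TOP2A, the mitotic topoisomerase, differed by -0.50, and by -0.60 to -0.25 over the alternative settings. CKAP2 differed by -0.60 ± 0.38 (limma unadjusted p = 0.159), and by -0.27 with the axis covariate. CDCA8, of the chromosomal passenger complex, and the phosphatase gene CDC25C differed by 0.20 ± 0.08 and 0.19 ± 0.08. With the axis covariate the median of the list was 0.001.

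Of 39 genes of the G1/S transition and replication, 29 (74.4%) were above 0, beside 61.1% of all genes. Their median was 0.09 log2 units, beside 0.04 over all genes. The 1 member with an unadjusted p under 0.05 was CDC6, described above, which was lower. That is 2.56% of the list beside 4.75% over all genes. CCNE1, the G1/S cyclin, differed by 0.20 ± 0.09 and UHRF1, which guides maintenance methylation of DNA, by 0.21 ± 0.10. Replication-dependent histone genes, many of them near copies of each other, had a median of -0.07 over 57 members, with 5 lower and 0 higher at an unadjusted p under 0.05, 8.77% beside 4.75% over all genes. H2AC6, a histone H2A gene, had 9.47 and 9.47 in the combination arrays, against 9.79 and 9.63 in the RU-486 arrays, a difference of -0.24 ± 0.08, and H2BC4 and H3C1 differed by -0.39 ± 0.14 and -0.37 ± 0.13.

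Small noncoding RNA genes stood out among the largest differences. They are 410 of the 18417 genes (2.23%) and 16 of the 71 beyond 1.5-fold, 15 of them lower and 1 higher. U5 is the spliceosomal RNA that holds the exon ends together during splicing, and its 5 gene copies were all lower in the combination. RNU5A-1 had 6.98 and 6.96 log2 units in the combination arrays, against 7.85 and 7.73 in the RU-486 arrays. Its difference of -0.82 ± 0.09 (limma unadjusted p = 5.15e-05, adjusted p = 0.769) had the smallest unadjusted p of all genes in this comparison. RNU5D-1 had 8.19 and 8.82, against 9.31 and 9.85, a difference of -1.08 ± 0.26.

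RNU5F-1 had 6.43 and 7.32 log2 units in the combination arrays, against 7.64 and 7.99 in the RU-486 arrays, a difference of -0.94 ± 0.28. RNU5E-1 had 10.63 and 11.37, against 11.51 and 11.72, a difference of -0.61 ± 0.24. RNU5B-1 had 6.78 and 7.21, against 7.44 and 7.67, a difference of -0.56 ± 0.23. In all 5 both combination arrays were below both RU-486 arrays, beside 17.1% of all genes. All 5 were lower at an unadjusted p under 0.05, beside 1.56% of all genes. The copies are nearly identical, so probes may read more than one of them and they are not 5 independent measurements. Combination replicate 1 was the lower array in 4 of the 5. Without it the differences were -0.83 for RNU5A-1, -0.76 for RNU5D-1, -0.49 for RNU5F-1, -0.34 for RNU5B-1 and -0.24 for RNU5E-1. With the axis covariate the median of the 5 was -0.87, beside -0.82 in the reported fit.

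Several other spliceosomal RNAs had smaller differences in the same direction. RNU4-2, a U4 copy, had 6.89 and 7.10 log2 units in the combination arrays, against 7.34 and 7.48 in the RU-486 arrays, a difference of -0.41 ± 0.11, and RNU4-1 differed by -0.26 ± 0.15. Of the minor spliceosome, which removes a rare class of introns, RNU4ATAC differed by -0.48 ± 0.17, RNU6ATAC by -0.12 ± 0.10, RNU11 by -0.19 ± 0.30 and RNU12 by -0.09 ± 0.12. Vault RNAs, the RNA parts of a large cytoplasmic particle, were not uniform. VTRNA1-2 differed by -0.79 ± 0.30 and VTRNA1-1 by 0.34 ± 0.28. Over the 29 spliceosomal, Y and vault RNA genes measured, 6 had a difference above 0, the median was -0.26, and 8 were lower and 0 higher at an unadjusted p under 0.05, 27.6% beside 4.75% over all genes. Several families of near copies make up the list.

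SNORD116 genes are an array of box C/D small nucleolar RNAs on chromosome 15, in the imprinted region deleted in Prader-Willi syndrome, and have no known modification target. Of 20 copies measured 19 had a difference below 0, with a median of -0.23 log2 units, and in 14 (70%) both combination arrays lay below both RU-486 arrays, beside 17.1% over all genes. At an unadjusted p under 0.05 there were 3 of the 20 (15%), beside 4.75% over all genes, and 4 of the 20 were dim. SNORD116-26 had 6.12 and 6.61 in the combination arrays, against 7.41 and 7.58 in the RU-486 arrays, a difference of -1.13 ± 0.20 (limma unadjusted p = 0.0007, adjusted p = 0.769), the largest of any gene. SNORD116-25 had 5.97 and 6.81, against 7.17 and 7.54, a difference of -0.96 ± 0.26 that was -0.54 without combination replicate 1. SNORD116-15, the brightest copy, had 12.78 and 13.02, against 13.03 and 13.03, a difference of -0.13 ± 0.11. The copies share sequence and cannot be fully told apart. All 20 measured copies of SNORD115, the neighbouring array in the same region, were dim, with means of 2.48 to 3.87, so their 11 differences above 0 and 9 below lie within background and bear on no contrast with SNORD116.

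Other small nucleolar RNAs went both ways. Box C/D RNAs guide 2-prime-O-methylation and box H/ACA RNAs guide pseudouridylation, chiefly of ribosomal RNA. Of 75 box C/D genes outside SNORD116 and SNORD115, 38 were below 0, and of 61 box H/ACA genes 34 were. SNORD45A had 9.84 and 11.09 in the combination arrays, against 11.46 and 11.51 in the RU-486 arrays, a difference of -1.02 ± 0.35 that rested mostly on combination replicate 1. SNORD13, which helps to process the RNA of the small ribosomal subunit, had 12.34 and 12.47, against 12.86 and 13.09, a difference of -0.57 ± 0.12. SNORD13P3, a copy of it, differed by -0.57 ± 0.14 and SNORA41 by -0.63 ± 0.15. On the higher side SNORA14B had 7.63 and 7.48, against 7.01 and 7.13, a difference of 0.49 ± 0.09. SNORA10 had 10.22 and 10.04, against 9.75 and 9.72, and SNORD30 had 10.32 and 9.76, against 9.44 and 9.44. Over the 192 small nucleolar and Cajal body RNA genes 24 were lower and 10 higher at an unadjusted p under 0.05, 17.7% of the list beside 4.75% over all genes.

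Mature microRNAs are shown for the 4 microRNA genes with the smallest unadjusted p, because the seed, bases 2 to 8 from the 5′ end and in capitals here, sets which messages a microRNA binds. The sequences are from RefSeq on GRCh38.p14, 5′ to 3′. miR-100-5p lies at chr11:122152275-122152296 on the minus strand, miR-222-3p at chrX:45747036-45747056 on the minus strand, miR-106b-5p at chr7:100094043-100094063 on the minus strand, and miR-125b-5p, from MIR125B2, at chr21:16590253-16590274 on the plus strand.
miR-100-5p: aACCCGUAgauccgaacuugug
miR-222-3p: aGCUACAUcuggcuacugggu
miR-106b-5p: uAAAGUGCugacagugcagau
miR-125b-5p: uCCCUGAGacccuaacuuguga
The 4 seeds differ from one another. The array labels reverse-transcribed RNA over the whole gene and reads precursor as well as mature RNA, so its signal for these genes is not a measure of the mature form.

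MIR100 had 3.36 and 3.32 log2 units in the combination arrays, against 3.72 and 3.75 in the RU-486 arrays, a difference of -0.39 ± 0.10 (limma unadjusted p = 0.005). MIR222, which in glioma cells targets the cell cycle inhibitor p27, had 4.76 and 4.45, against 5.18 and 4.96, a difference of -0.46 ± 0.14. MIR125B2 had 5.43 and 5.48, against 5.30 and 5.17, a difference of 0.22 ± 0.08. All of these are dim. MIR106B, of the oncogenic cluster within the MCM7 gene, was bright with 6.74 and 6.64, against 6.36 and 6.50, a difference of 0.26 ± 0.09. In none of the 4 did the groups overlap, which their choice by the smallest p favours. Of all the microRNA genes, 35 had both combination arrays above both RU-486 arrays and 27 had both below. The shares over all genes were 33.3% and 17.1%. Over 189 microRNA genes 6 were higher and 2 lower at an unadjusted p under 0.05, 4.23% beside 4.75% over all genes.

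Progesterone can be compared with vehicle in the arrays without RU-486, which are separate from the 4 arrays above. There limma called 0 genes (0%), and 1129 (6.13%) had an unadjusted p under 0.05, of which 451 (2.45%) were lower after progesterone. Across all genes the 2 progesterone differences, with RU-486 and without it, correlated at r = 0.14 (Spearman 0.09), and 54.2% of genes had the same sign in both. Of the 874 genes at an unadjusted p under 0.05 with RU-486, 48.3% had the same sign without it. The test of the difference between the 2 differences called 0 genes (0%), with a smallest adjusted p of 0.828, and 972 (5.28%) had an unadjusted p under 0.05. An effect of progesterone that depends on RU-486, or one that does not, was therefore not detectable gene by gene.

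Of the 18417 genes, 89 had an unadjusted p under 0.05 in both differences, beside 4.75% of genes with RU-486 and 6.13% without it. Both differences take the SE of a gene from the same spread, so a gene with a small SE tends to pass in both. Of the 89 genes, 18 were higher in both, 22 lower in both and 49 opposite. Small RNA genes were 15 of the 22 lower in both and 2 of the 18 higher in both, beside 2.23% of all genes. SNORD116-26 differed by -1.13 with RU-486 and by -0.90 without it, SNORD116-25 by -0.96 and -0.94, RNU5D-1 by -1.08 and -0.83, RNU5F-1 by -0.94 and -0.81 and SNORD82 by -0.93 and -0.71. Without combination replicate 1 the differences with RU-486 of SNORD116-25 and SNORD82 were both -0.54. The box C/D and H/ACA genes SNORD60, SNORD50A and SNORA41, the Cajal body RNA SCARNA1, RNU4-2, MIR100 and MIR222 were also among them. Every SNORD116 copy was lower after progesterone without RU-486 as well, 20 of 20 with a median of -0.43. That direction was not particular to them. Lower there were 100 of all 115 box C/D genes, these copies included, with a median of -0.24. So were 46 of 61 box H/ACA genes, with a median of -0.14, while the median over all genes was 0.004. RNU5A-1 was an exception to the likeness between the 2 differences. It differed by -0.06 ± 0.09 without RU-486, and the 2 differences were apart by -0.75 ± 0.13 (limma unadjusted p = 0.0008). Progesterone replicates differed more than any other pair, and that comparison is the less precise one. The plot of both differences shows small RNA genes among the lowest in both, and others, such as SNORD45A and SNORA14B, away from the diagonal.

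**Figure D4:**
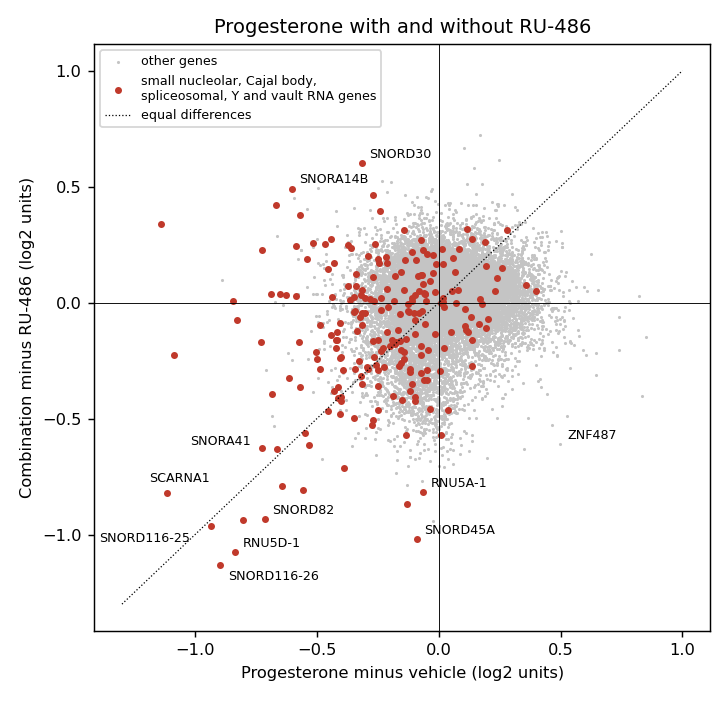
Difference between the combination and RU-486 (vertical axis, log2 units) against the difference between progesterone and vehicle (horizontal axis, log2 units) for 18417 genes, with small nucleolar, Cajal body, spliceosomal, Y and vault RNA genes in red. The genes farthest to the lower left are red, among them SNORD116-26 at -1.13 and -0.90, while ZNF487 lies at -0.61 and 0.50.

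Protein-coding genes were 16 of the 18 higher in both and 7 of the 22 lower in both, beside 16900 of all 18417 genes. ETV1, a transcription factor downstream of receptor tyrosine kinases, had 7.80 and 7.94 log2 units in the combination arrays, against 8.08 and 8.32 in the RU-486 arrays, and differed by -0.33 with RU-486 and by -0.34 without it. CSPG4, the NG2 proteoglycan of glial progenitors, was dim and differed by 0.32 and 0.30. FAIM, an inhibitor of death receptor signalling, differed by -0.24 and -0.25. THBS4, a matrix protein, differed by 0.22 and 0.23.

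The genes with the smallest p for opposite behaviour were small nucleolar RNAs and a few messages. SNORA14B differed by 0.49 with RU-486 and by -0.60 without it (difference of the differences 1.09, limma unadjusted p = 4.53e-05, adjusted p = 0.828). SNORA28 differed by 0.42 and -0.67, and HSD17B7P2, a pseudogene of a steroid and sterol dehydrogenase, by 0.45 and -0.59. RAMAC, a cofactor of the messenger RNA cap methyltransferase, differed by 0.26 and -0.37. ZNF487 ran the other way, at -0.61 with RU-486 and 0.50 without it. SESN2, a stress-induced sensor of leucine that restrains mTORC1, had 8.30 and 8.10 log2 units in the combination arrays, against 7.85 and 7.92 in the RU-486 arrays, a difference of 0.32 ± 0.09 beside -0.33 ± 0.09 for progesterone alone (difference of the differences 0.65, limma unadjusted p = 0.001).

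Some genes of the amino acid and ER stress response and of fatty acid oxidation, such as ASNS and CPT1A, had higher levels in the RU-486 arrays than in vehicle arrays. Others did not, among them ACADM, at a mean of 12.01 with RU-486 and 12.10 with vehicle, and PPARD, at 9.30 and 9.32. Between the combination and RU-486, limma called no gene of either list. Both combination arrays lay above both RU-486 arrays in 9 of 30 stress response genes and in 13 of 22 genes of fatty acid oxidation and PPAR signalling, and below both in 2 and 4, beside 33.3% and 17.1% over all genes. ASNS, which makes asparagine, had 9.84 and 9.87 log2 units in the combination arrays, against 9.65 and 10.01 in the RU-486 arrays, with vehicle arrays at 8.81 and 8.85. The 95% interval of the difference between the combination and RU-486 was -0.26 to 0.31. NUPR1, a stress-induced chromatin protein, differed by 0.01 ± 0.14. CPT1A, the gate of mitochondrial fatty acid oxidation, had 10.97 and 10.84, against 10.71 and 10.70, with vehicle arrays at 9.87 and 9.76, and its interval was -0.09 to 0.50. SLC25A20, the carnitine carrier, differed by 0.15 ± 0.08, CHAC1, which degrades glutathione, by 0.17 ± 0.10, and the mitochondrial carboxykinase gene PCK2 by 0.11 ± 0.11. These genes were chosen with the effect of RU-486 known.

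Of the 30 stress response genes, 24 (80%) had a difference above 0 with a median of 0.07 log2 units, beside 61.1% and 0.04 over all genes. SESN2 and VLDLR, a lipoprotein receptor, were the 2 with an unadjusted p under 0.05, 6.67% of the list beside 4.75% over all genes. Of 19 aminoacyl-tRNA synthetase genes, which charge transfer RNAs, 14 (73.7%) were above 0. YARS1 at 0.29 ± 0.11 and EPRS1 at -0.41 ± 0.17 passed that threshold in opposite directions, 10.5% of the list. HSP90B1, the ER member of the HSP90 family, had 12.13 and 12.37 in the combination arrays, against 12.56 and 12.62 in the RU-486 arrays, a difference of -0.34 ± 0.12.

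Of 22 genes of fatty acid oxidation and PPAR signalling 17 (77.3%) were above 0, with a median of 0.08 log2 units, beside 61.1% and 0.04 over all genes. At an unadjusted p under 0.05, 1 was higher and 3 lower, 18.2% of the list beside 4.75% over all genes. Of 24 genes of sterol and fatty acid synthesis 17 (70.8%) were above 0, with a median of 0.10. At that threshold 0 were higher and 1 lower, 4.17% of the list. PPARD, a nuclear receptor for fatty acids, had 9.58 and 9.54 in the combination arrays, against 9.30 and 9.29 in the RU-486 arrays, a difference of 0.26 ± 0.08. PPARGC1A, the coactivator that drives mitochondrial biogenesis, had 9.32 and 9.67, against 9.96 and 10.15, a difference of -0.56 ± 0.21. ACADM, of medium-chain oxidation, and ACAA2, its last step, differed by -0.35 ± 0.14 and -0.20 ± 0.08. The cholesterol exporter gene ABCG1 differed by 0.31 ± 0.11 and SC5D, a late enzyme of cholesterol synthesis, by -0.41 ± 0.15. FASN, the fatty acid synthase, differed by 0.21 ± 0.10 and ELOVL6, which lengthens its product, by -0.28 ± 0.13, neither with an unadjusted p under 0.05.

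Among growth factors of glioma, PDGFA, the ligand of the PDGF alpha receptor, had 9.04 and 8.77 log2 units in the combination arrays, against 8.52 and 8.57 in the RU-486 arrays, a difference of 0.36 ± 0.11. VEGFB differed by 0.29 ± 0.11, KITLG, the ligand of KIT and a dim gene here, by -0.51 ± 0.20, and NTRK2, the BDNF receptor, by -0.26 ± 0.08. Of the 40 genes in that list 28 (70%) were above 0, with a median of 0.07, beside 61.1% and 0.04 over all genes. Of 29 semaphorin, plexin and neuropilin genes, which steer migrating cells and vessels, 3 were higher and 0 lower at an unadjusted p under 0.05, 10.3% beside 4.75% over all genes. SEMA4D had 8.61 and 8.29, against 8.03 and 8.08, a difference of 0.40 ± 0.11, and SEMA4B and SEMA4F differed by 0.20 each. MMP1, the interstitial collagenase, was dim and differed by 0.46 ± 0.14. RNF43, which removes Wnt receptors from the surface, differed by 0.33 ± 0.10.

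Among p53 targets 3 of 21 (14.3%) and among interferon-stimulated genes 5 of 37 (13.5%) had an unadjusted p under 0.05, beside 4.75% over all genes. Of the p53 targets TNFRSF10B, the death receptor 5 gene, differed by 0.27 ± 0.09, and MDM2, the ubiquitin ligase of p53, and ZMAT3 by -0.50 ± 0.19 and -0.36 ± 0.13. Of 37 interferon-stimulated genes 13 were above 0, with a median of -0.04, and the members at an unadjusted p under 0.05 were MX1, OAS1 and OAS3 at 0.22 to 0.27 on the higher side and, on the lower side, CXCL10, a chemokine, at -0.54 ± 0.18 and IFIT5, named after its value was seen, at -0.41 ± 0.17. BMAL1, the core activator of the circadian clock, had 8.98 and 8.98, against 8.68 and 8.79, a difference of 0.24 ± 0.08. GJA1, the astrocyte gap junction gene, and SLC1A3, the astrocyte glutamate transporter, differed by -0.35 ± 0.12 and -0.23 ± 0.08, and MSI1, a neural stem cell RNA-binding protein, by 0.23 ± 0.09. They were named for a small p from 18 astrocyte and glioma stem markers, of which 10 were above 0 and 8 below, with a median of 0.01. At an unadjusted p under 0.05, 1 of the 18 was higher and 2 lower, 16.7% beside 4.75% over all genes.

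Ribosomal and mitochondrial genes were close to 0. The 64 cytosolic ribosomal protein genes had a median of 0.01 log2 units, the 80 oxidative phosphorylation genes -0.001 and the 73 mitochondrial ribosomal protein genes 0.04, each with 1 member at an unadjusted p under 0.05. Those were RPL26L1, NDUFV2 and MRPL20, at 0.22, 0.29 and 0.26. Metallothionein and zinc export genes had 2 of 10 members above 0, with a median of -0.08 and 0 members at an unadjusted p under 0.05. Over the 48 lists examined limma called 0 members, and the plot of the lists shows their medians beside that of all genes.

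**Figure D5:**
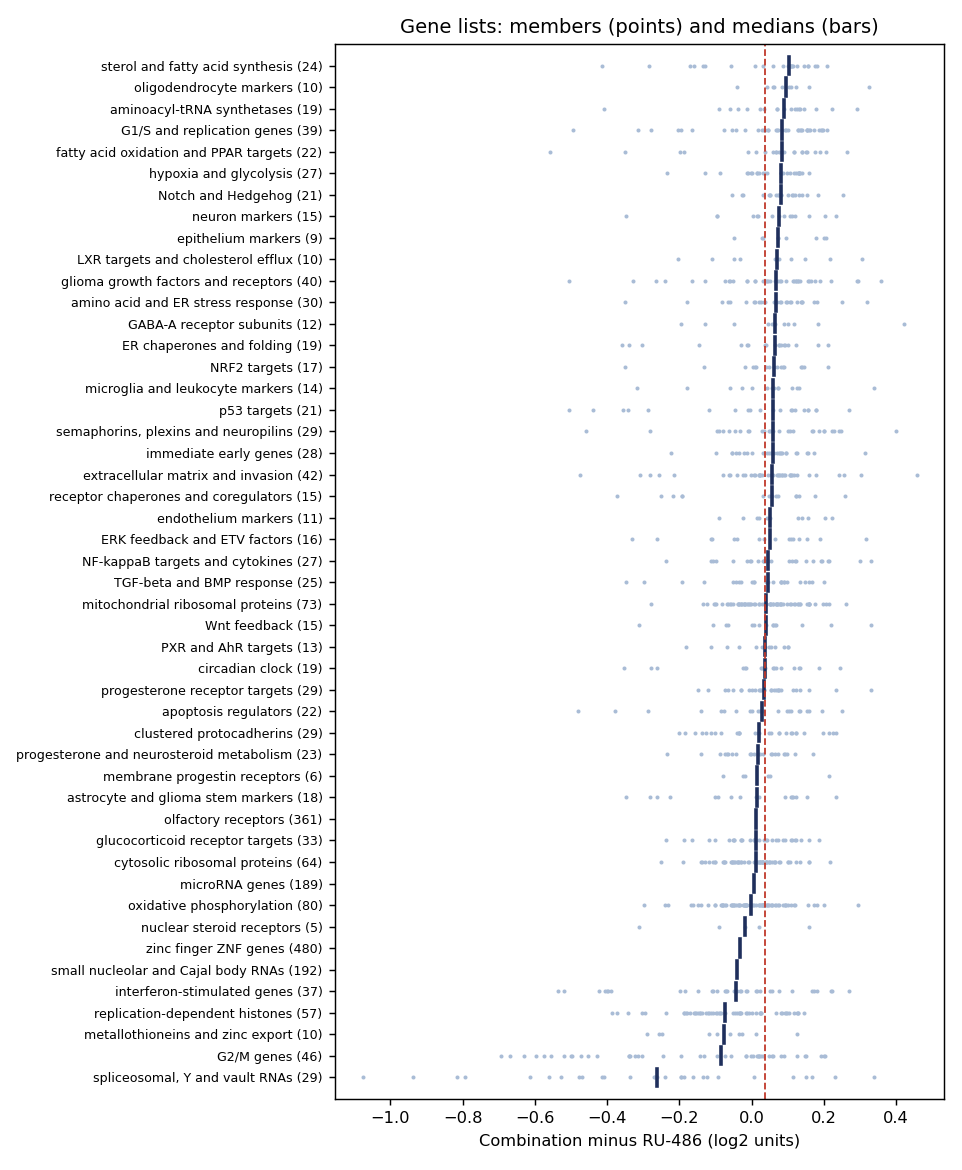
Difference between the combination and RU-486 (horizontal axis, log2 units) for the members of each gene list (points) with the list median (bar), against the median of all genes (dashed line, 0.04). Members are drawn for lists of up to 100 genes, and the lowest median is that of the spliceosomal, Y and vault RNAs at -0.26.

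2 features that the comparison did not use were set beside the differences. The first was the genomic span of the gene in RefSeq. Protein-coding genes had a median span of 27.3 kb over the array, 29.0 kb for the 541 higher and 47.1 kb for the 237 lower ones at an unadjusted p under 0.05, and 54.8 kb for the 50 lower by more than 1.5-fold. This is a description, and what the span goes with was not tested.

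The other was sequence before the transcription start, where a steroid receptor could bind. The 250 bases upstream of each start were searched on both strands for AGAACA, which reads TGTTCT on the other strand and is the hexamer of the progesterone and glucocorticoid response element, and for the full palindrome of AGAACA, any 3 bases and TGTTCT. The hexamer was present in 12.4% of all 35116 promoters and the palindrome in 0.0028%. Of the leading bright genes with a promoter in the table it was found in 1 of 9 higher genes, PPCS, and in 1 of 9 lower ones, L3MBTL3, and the palindrome in none of them. A gene was counted where any of its promoters held the hexamer, and both genes have other promoters without it. The promoter of each that holds the hexamer, shown in capitals, is printed here, for a gene of either direction. The sequences are from RefSeq on GRCh38.p14, read 5′ to 3′ on the strand of the gene. That of PPCS lies at chr1:42456293-42456542 and that of L3MBTL3 at chr6:130018331-130018580, both on the plus strand.
PPCS: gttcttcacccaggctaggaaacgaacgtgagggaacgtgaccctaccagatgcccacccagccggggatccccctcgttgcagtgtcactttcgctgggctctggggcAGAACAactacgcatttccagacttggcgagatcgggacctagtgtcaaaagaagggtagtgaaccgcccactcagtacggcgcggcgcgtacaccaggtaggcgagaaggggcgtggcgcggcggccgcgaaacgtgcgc
L3MBTL3: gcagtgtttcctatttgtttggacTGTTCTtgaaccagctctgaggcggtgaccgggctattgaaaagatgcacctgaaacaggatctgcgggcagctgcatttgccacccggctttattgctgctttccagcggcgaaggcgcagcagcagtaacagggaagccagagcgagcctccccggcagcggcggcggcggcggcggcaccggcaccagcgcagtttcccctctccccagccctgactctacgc
Among the 541 higher and 237 lower protein-coding genes at an unadjusted p under 0.05, 12.8% and 10.3% of those with a promoter held the hexamer, beside 12.4% of all protein-coding genes. A match is a description of these letters and not a binding site.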

How the data were processed

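Total RNA from 8 samples was extracted with Trizol and hybridised to Affymetrix Human Gene 1.0 ST arrays, per the labels' protocols. The authors deposited 1 log2 value per probe set and array. The submitters' processing notes name RMA, limma and oligo as tools and give no versions. RMA equalises the arrays, so a shift shared by most genes would not be seen. Array medians ran from 6.93 to 7.02.

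Of 33297 probe sets 19460 had 1 gene symbol, 1754 several and 12083 none in the platform annotation, and 769 genes had several probe sets. No filter on dim genes was used. The 13837 other probe sets, tested apart, gave 0 calls and 524 at an unadjusted p under 0.05.

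Group means of all 8 arrays entered a limma fit (lmFit, eBayes, version 3.58.1, R 4.3.3) with 4 residual degrees of freedom, Benjamini-Hochberg adjustment over 18417 genes and calls at an adjusted p under 0.05. The fit was tested on simulated data. The genes and the 48 lists were chosen with earlier results of these data known, and lists have no test. Named genes are the 12 bright non-overlapping genes each way with the smallest p outside small RNA, LOC and orf names, the 3 dim ones, 4 members of each list, all steroid receptors, the 4 small RNAs and the 5 interaction genes each way. Alternatives were other fits, scalings and filters and leaving out each array.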

Additional observations from a re-analysis of the deposited data

How the results depend on the processing

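The count of genes called stayed at 0 in every one of the 18 alternative settings, for the difference between the combination and RU-486, whose smallest adjusted p ran from 0.122 to 1.00, and also for the interaction wherever it could be fitted. The 874 genes at an unadjusted p under 0.05 depended on which arrays set the spread. There were 1942 with the replicate number as a block, 2287 with the 4 arrays alone, 2192 with the progesterone arrays left out, 2335 with array weights and 1645 with the axis score as covariate. Leaving out 1 array gave 250 to 2192 genes, fewest without combination replicate 1 and most without either progesterone replicate. The 4-array fit split them into 984 higher and 1303 lower, the block into 907 and 1035, and the axis covariate into 827 and 818, beside 586 and 288 in the reported fit. Same-numbered arrays deviated together across genes (r from 0.20 to 0.51 over the 6 pairs of groups), but with 2 numbers they share only a number, and the block changed no call. The 71 genes beyond 1.5-fold became 29 with the axis covariate and 33 to 312 on leaving out 1 array. Of 160 genes followed with a difference of at least 0.2 log2 units, leaving out combination replicate 1 made 47 smaller by over 1.5 times, RU-486 replicate 2 made 12 smaller, RU-486 replicate 1 made 6 and combination replicate 2 made 2. The cause of these shifts was not tested.

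Of 199 genes followed, 13 changed sign in some setting, none of them differing by more than 0.19 log2 units in the reported fit. Leaving out 1 array gave -0.216 to 0.0348 for PGR, -0.0866 to 0.127 for ESR1, -0.0382 to 0.00166 for ESR2, -0.0594 to 0.0103 for PGRMC2, -0.0626 to 0.164 for PAQR5, -0.00651 to 0.0963 for PAQR6, -0.105 to 0.0711 for PAQR8, -0.391 to 0.0152 for RNU11, -0.151 to 0.202 for ASNS, -0.0504 to 0.0655 for NUPR1, -0.0250 to 0.238 for PCK2, -0.0294 to 0.0255 for CCNB1 and -0.0255 to 0.0803 for AURKA. The axis covariate gave 0.0395 for PGRMC2, -0.0267 for PAQR6, 0.0259 for PAQR8, -0.0824 for NUPR1 and 0.0440 for CCNB1, and centring arrays on their medians gave 0.00445 for CCNB1. The median of 20 of the 48 lists changed sign in at least 1 setting, and the median difference over all genes ran from 0.02 to 0.05. With 2 arrays a group, and 1 spread for groups whose replicates differ in spread, the precision is limited by the number of arrays, and dim genes carry only differences within background.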

Other observations

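Of the small RNA genes outside the families described above, 3 with both combination arrays below both RU-486 arrays are given here, beside 17.1% of all genes. RPPH1, the RNA of ribonuclease P, had 9.93 and 10.54 log2 units in the combination arrays, against 10.71 and 10.57 in the RU-486 arrays, and RMRP, the RNA of ribonuclease MRP, had 11.60 and 11.91, against 12.03 and 12.03. TERC, the telomerase RNA, had 9.64 and 9.72, against 10.31 and 9.77. In RPPH1 and TERC the nearest arrays of the groups lay close together. These 3 genes were chosen after their values were seen, and their unadjusted limma p were 0.060, 0.086 and 0.070. The SNORD113 and SNORD114 genes, an imprinted array on another chromosome than SNORD116, had 6 of 6 measured members with both combination arrays above both RU-486 arrays, beside 33.3% of all genes, with a median difference of 0.17 log2 units, and 1 had an unadjusted p under 0.05. All 6 were dim, with means of 2.79 to 3.77, so these are differences within background.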
